A study of Homo sapiens with 6 samples.

Results

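The genes described here carry cells from G1 into S phase and copy the genome: 49 genes named by symbol, of which 42 had a row among the 12306 rows of the deposited table. CDT1, GINS2, PCNA, RPA2, RPA3, TK1 and DUT had no row among those used here. The cells were of the line 92.1, which was established from a human uveal melanoma, and were grown in RPMI-1640 with fetal bovine serum. Of the 6 libraries, 3 had received VS-4718 at 1 µM for 2 h and 3 had received the DMSO vehicle for the same time. VS-4718 inhibits focal adhesion kinase, the product of PTK2, and no other agent or genetic change is named for either group. Nothing in the labels says that the libraries of a group are from separate cultures. The p-values therefore measure the spread among 6 libraries, part or all of which may be technical.

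In G1, the origin recognition complex with CDC6 and CDT1 loads the MCM2 to MCM7 ring onto DNA, a step called licensing. At the start of S phase, CDC45 and the GINS complex join the ring to form the active helicase, and polymerases, the PCNA clamp, its RFC loader and the nucleotide enzymes then copy the DNA. Cyclin E with CDK2 drives that step, and E2F transcription factors, held back by RB and its relatives, are known to switch on many of these genes in dividing cells. The members are described by role: 16 licensing and helicase genes, 20 polymerase and fork genes, 5 nucleotide supply genes, 4 G1/S drivers and 4 chromatin assembly genes.

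Because E2F sites are the best known shared feature of these genes, their promoter windows are shown for the 3 members with the smallest p-values (GINS1, MCM10 and RFC3), for MCM2, a ring subunit whose groups overlapped, and for E2F3, the E2F gene that passed the test. Each window runs from 250 bases before to 50 bases after the RefSeq start site on GRCh38.p14, all on the plus strand: chr20:25407423-25407722 for GINS1, chr10:13161308-13161607 for MCM10, chr13:33817899-33818198 for RFC3, chr3:127598161-127598460 for MCM2 and chr6:20401629-20401928 for E2F3. Capitals mark any of the 4 E2F words TTTCCCGC, TTTGGCGC, TTTCGCGC and TTTGCCGC on either strand.
GINS1: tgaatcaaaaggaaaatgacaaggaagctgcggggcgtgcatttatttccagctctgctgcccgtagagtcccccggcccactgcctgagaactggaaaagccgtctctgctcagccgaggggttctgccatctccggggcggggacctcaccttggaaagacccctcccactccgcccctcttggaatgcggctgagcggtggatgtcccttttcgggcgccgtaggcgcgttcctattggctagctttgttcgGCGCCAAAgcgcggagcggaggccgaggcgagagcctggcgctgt
MCM10: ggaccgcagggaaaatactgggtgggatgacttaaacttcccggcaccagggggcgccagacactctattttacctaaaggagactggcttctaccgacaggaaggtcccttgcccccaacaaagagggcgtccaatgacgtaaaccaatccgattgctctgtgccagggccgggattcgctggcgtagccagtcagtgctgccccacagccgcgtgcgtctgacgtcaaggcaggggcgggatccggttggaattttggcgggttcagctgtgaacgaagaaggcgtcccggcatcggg
RFC3: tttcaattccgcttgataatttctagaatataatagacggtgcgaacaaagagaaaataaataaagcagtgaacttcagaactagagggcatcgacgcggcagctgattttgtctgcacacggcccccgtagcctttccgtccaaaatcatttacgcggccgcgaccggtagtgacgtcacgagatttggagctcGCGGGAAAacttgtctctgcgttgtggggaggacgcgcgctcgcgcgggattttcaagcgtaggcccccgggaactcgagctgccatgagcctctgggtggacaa
MCM2: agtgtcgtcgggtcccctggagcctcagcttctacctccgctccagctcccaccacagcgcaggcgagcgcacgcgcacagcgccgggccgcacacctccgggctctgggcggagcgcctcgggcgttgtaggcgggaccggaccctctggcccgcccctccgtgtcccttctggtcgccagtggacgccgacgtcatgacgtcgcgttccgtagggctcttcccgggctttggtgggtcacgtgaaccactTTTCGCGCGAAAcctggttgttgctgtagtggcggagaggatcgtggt
E2F3: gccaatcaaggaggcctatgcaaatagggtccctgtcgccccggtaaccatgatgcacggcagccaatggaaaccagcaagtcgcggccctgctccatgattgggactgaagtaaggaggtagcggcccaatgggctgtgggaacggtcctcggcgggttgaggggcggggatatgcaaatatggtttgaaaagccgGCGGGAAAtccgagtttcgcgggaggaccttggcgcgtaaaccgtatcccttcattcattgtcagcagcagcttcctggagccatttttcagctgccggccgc
Positions are counted from the RefSeq start site. GINS1 held 1 word, which began at base 6 of the transcript, and RFC3 held 1 that began 55 bases before the start site. MCM2 held TTTCGCGC on both strands, beginning at bases 3 and 7 of the transcript and overlapping itself. E2F3 held 1 word that began 53 bases before its start site. None of the 4 words was in the MCM10 window, which says only that these letters are not there. That window does hold TTTGGCGG, which differs from TTTGGCGC only in its last base and was not searched for.

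The promoter table matched 42 of the 49 members. MCM4, MCM5, POLD3, RPA2, RPA3, CCNE2 and CDK2 were not matched. At least 1 of the 4 E2F words, on either strand and with overlaps allowed, stood in 19 of the 42 windows (45.2%), against 3.33% of 27305 promoter windows, 4.44% of the 15843 of protein-coding genes and 6.09% of the 6077 that matched a tested row. Licensing and helicase genes carried a word in 9 of 14 windows (64.3%), and polymerase and fork genes did so in 7 of 17 (41.2%). MCM6 held 4 matches in which different words overlapped, and MCM3 and MCM7 held 2 each. The CCAAT box, which binds the factor NF-Y, was in 57.1% of member windows, 35.7% of all windows and 38% of those that matched a tested row, on either strand. The CHR element TTTGAA, known from genes of mitosis, was in 1 member window, that of RRM1 (2.38%, against 15.4% of all windows, 12.1% of protein-coding ones and 9.25% of those that matched a tested row), while 8 of 14 windows of the G2/M list held it (57.1%). The GC box GGGCGG was in 73.8% of member windows and in the same share, 73.8%, of windows that matched a tested row.

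**Figure D1:**
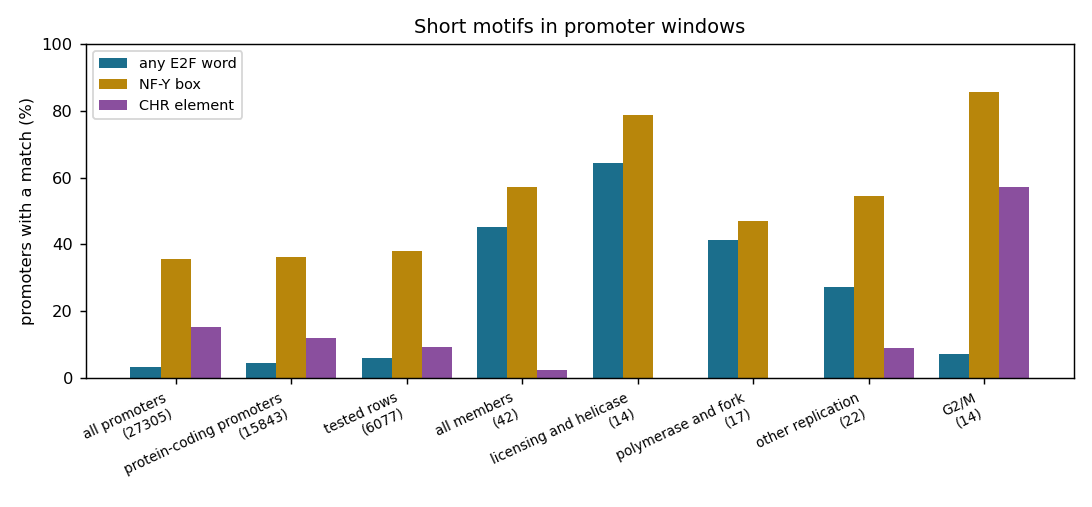
Share of promoter windows (vertical axis, percent, from 0 to 100) with a match on either strand, by set of genes (horizontal axis, number of windows in brackets), for any of the 4 E2F words, the NF-Y box (CCAAT) and the CHR element. The E2F words stand in 45.2% of member windows and 3.33% of all windows, and the CHR element in 57.1% of G2/M windows.

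The values are log2 of a measure like TPM, transcript abundance per length scaled to a fixed total, so a difference of 1 is a change of 2-fold. TPM keeps no read total, and the depth of the libraries is unknown. Rank correlations between libraries (Spearman, across genes) lay between 0.985 and 0.988 within a group and between 0.984 and 0.988 across groups. By this coarse measure no library stood apart. All 10 melanocyte markers had a row. Their summed level was 7370 to 7960 TPM-like units in vehicle and 7160 to 7840 with VS-4718, mostly from PMEL and TYRP1, while the rows of TYR, MLANA and DCT were low in both groups. Summed levels of other cell types were low in both groups: at most 1.67 units for fibroblast (4 of 7 with a row), 0.177 for immune (2 of 7), 0.501 for epithelial (1 of 6) and under 10 for endothelial markers (2 of 5). The row names follow mouse usage in capitals, and 75.6% are current human symbols. The submitters' processing notes name the human build GRCh38 but no index, and the row names leave it unclear whether the index held human or mouse transcripts. A level below is therefore that of the row so named. A low or missing row need not mean that the human gene was low, and the order of levels between genes carries the same limit. In bulk RNA, fewer cycling cells and less RNA per cell cannot be told apart.

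Of the 49 members, 38 had a mean over the filter of 0.70 log2 units, 4 had a row under it and 7 had no row. Among the 38, the median vehicle level was 5.53, against 4.01 for all 9229 tested rows. TYMS, which makes thymidylate, and CDK2, the kinase partner of cyclin E, were the highest, at 8.63 ± 0.03 (SD, n = 3) and 8.58 ± 0.02 in vehicle. Their vehicle ranges overlapped. RRM2, the small subunit of ribonucleotide reductase, came next at 7.86 ± 0.02, barely above MCM2. The lowest vehicle value of RRM2 was 7.834 and the highest of MCM2 7.829. With VS-4718 the order was the reverse, with means of 7.77 for RRM2 and 7.85 for MCM2 and overlapping ranges.

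The ring subunits MCM2 to MCM7 form a hexamer with 1 copy of each, but their rows spread over more than a log2 unit per length. In vehicle MCM2 stood at 7.80 ± 0.04, MCM7 at 7.68 ± 0.08, MCM3 at 7.07 ± 0.04, MCM4 at 6.53 ± 0.02, MCM6 at 6.35 ± 0.05 and MCM5 at 6.01 ± 0.13. MCM2 and MCM7 overlapped between vehicle libraries, and the other neighbours in this order did not. MCM6, CDC45 and GINS1, parts of the same active helicase, had overlapping levels at 6.35, 6.34 ± 0.05 and 6.31 ± 0.14.

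At the low end, the rows of 4 members lay under the filter and were not tested. Since the index is unknown and 7 other members have no row, these values may not be the levels of the human genes. CDC6, the loading factor of licensing, stood at -0.46, -0.36 and -0.97 in vehicle and -0.02, -0.25 and -0.82 with VS-4718. ORC1, the largest origin subunit, ranged from -2.98 to -1.51 and from -2.42 to -1.38. POLD2, a subunit of DNA polymerase delta, ranged from -2.36 to -0.80 and from -1.02 to -0.10, and UHRF1, which guides DNA methylation to new strands, from -5.50 to -4.29 and from -5.21 to -2.45. The groups overlapped in each of the 4, all below 1 TPM-like unit in mean. CDC45, listed in the same role as CDC6, and POLD1, of the same polymerase as POLD2, lay far above the filter in every library. Why the 4 rows were low was not tested.

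**Figure D2:**
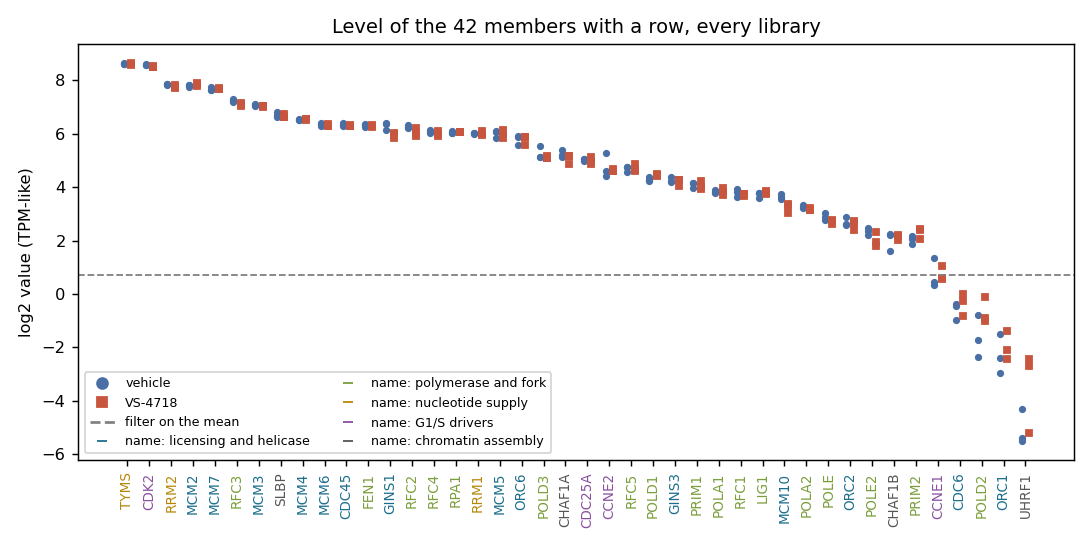
Log2 value (vertical axis, TPM-like scale) of the 42 members with a row in every library, ordered by vehicle mean (horizontal axis, names coloured by role); circles are vehicle and squares VS-4718, 3 each, and the dashed line is the filter on the mean at 0.70. TYMS and CDK2 lead at 8.63 and 8.58, and CDC6, POLD2, ORC1 and UHRF1 lie below the filter.

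The main comparison asked whether these genes differed after 2 h with the inhibitor. None of the 38 tested members passed limma with Benjamini-Hochberg adjustment over all 9229 rows, where 12 rows passed (0.130%). Their adjusted p-values ran from 0.31 to 0.995. At an unadjusted limma p under 0.05 there were 3 members, GINS1, MCM10 and RFC3, all lower with VS-4718 (7.89% of the members). The share over all tested rows was 6.74% for lower rows and 9.76% in either direction, so this count is near the background. In 6 members every treated value lay below every vehicle value (15.8%, against 11.2% of all tested rows), and in 1 every treated value lay above (5.15% of all tested rows).

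Small differences to the lower side prevailed, as they did in the whole table. The mean was lower with VS-4718 in 28 of 38 members (73.7%, against 58.2% of all tested rows), and the median log2 fold change was -0.04, against -0.03 over all tested rows. With the medians of the libraries made equal, 21 of 38 were lower and the members' median was -0.01, against 49.3% lower among all rows. VS-4718 replicate 2 was the lowest library in 15 of the 38 members, and vehicle 1 was the highest in 13. Their median deviations from the row mean were -0.042 and 0.046 in the members. Over all tested rows they were -0.039 and 0.026, also the lowest and highest of the 6 libraries. Without VS-4718 replicate 2, 26 of 38 were lower, against 54.6% of all tested rows. The members' median was then -0.03, against -0.02 over all tested rows. By role the medians were -0.03 for licensing and helicase genes, -0.06 for polymerase and fork genes, -0.02 for nucleotide supply, -0.06 for G1/S drivers and -0.05 for chromatin assembly. The fold change was under 0.1 in size in 26 of 38 members (68.4%, against 46.4% of all tested rows). The 95% interval of single-gene differences, which is not adjusted for the number of genes, lay wholly within 0.5 log2 units of 0 in 31 of 38 (81.6%, against 61.0% of all tested rows). Members at 6 log2 units or more had a median SE of 0.05 and those under 6 one of 0.12, so low rows were measured less precisely.

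**Figure D3:**
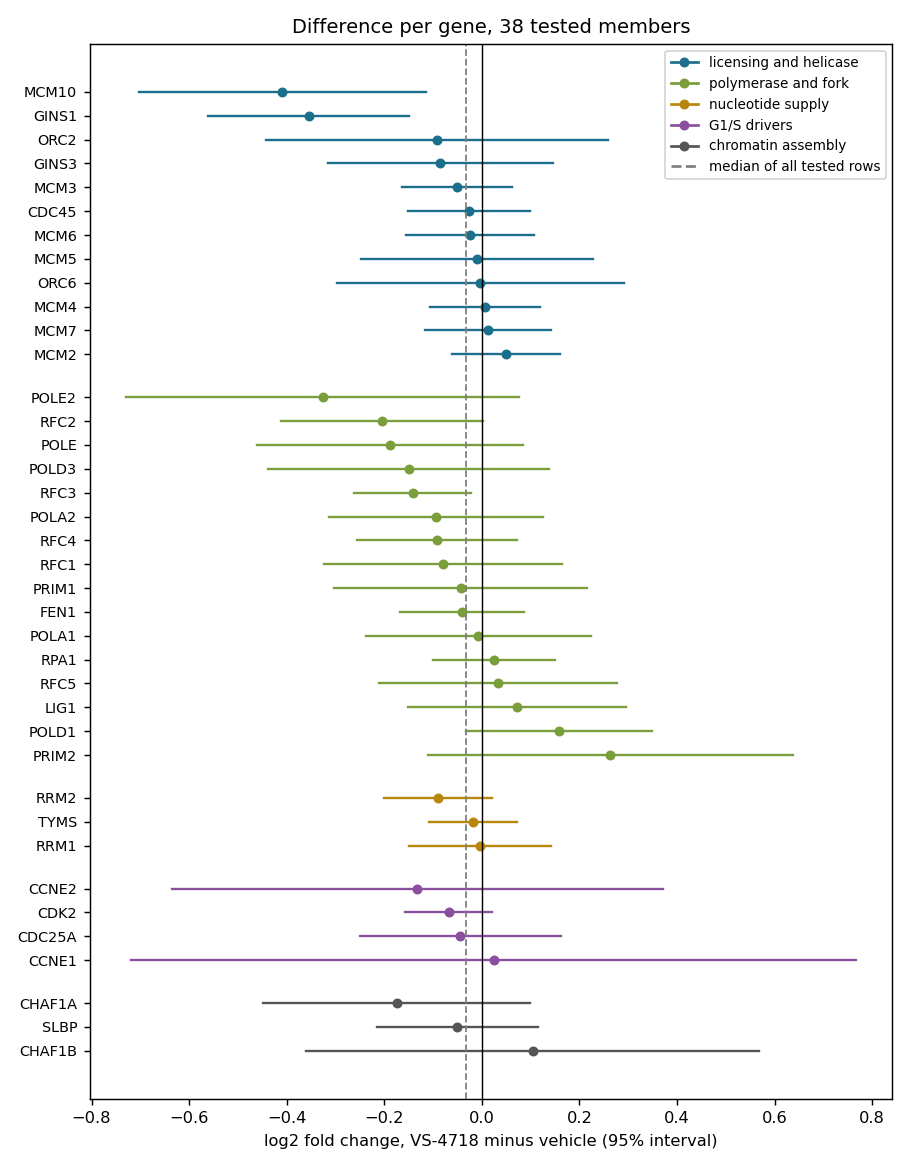
Log2 fold change, VS-4718 minus vehicle (horizontal axis), with limma's 95% interval, for the 38 tested members (vertical axis), coloured by role and ordered within it; the solid line is 0 and the dashed line the median of all tested rows, -0.03. The intervals of MCM10, GINS1 and RFC3 lie wholly below 0 before adjustment. Those of MCM2 to MCM7 span 0 and are narrow, except that of MCM5 (-0.25 to 0.23).

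Among licensing and helicase genes, GINS1 and MCM10 had the smallest p-values. GINS1, a subunit of the GINS complex that completes the helicase, had values of 6.15, 6.37 and 6.40 in vehicle and 5.99, 6.01 and 5.85 with VS-4718. Every treated value was below every vehicle value, and vehicle 1 was the closest to the treated ones. The fold change was -0.36 (SE 0.09, a geometric mean lower by 21.8%), with an unadjusted limma p of 0.0049 and an adjusted p of 0.31. It ran from -0.43 to -0.31 over 15 other settings and passed in none of them.

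MCM10, which binds the helicase and helps it to start, had values of 3.65, 3.75 and 3.55 in vehicle and 3.38, 3.31 and 3.03 with VS-4718. The groups did not overlap, and VS-4718 replicate 3 was the lowest. Its fold change was -0.41 (SE 0.12, limma, adjusted p = 0.38), the lowest of the tested members. GINS3, of the same complex as GINS1, differed by -0.08 (95% interval -0.32 to 0.15), and CDC45, the other partner of the ring, by -0.03 (-0.15 to 0.10).

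The ring itself stayed close to its vehicle level. MCM2 had values of 7.81, 7.75 and 7.83 in vehicle and 7.85, 7.89 and 7.80 with VS-4718, and the groups overlapped (0.05, 95% interval -0.06 to 0.16). MCM3 had 7.11, 7.03 and 7.08, then 7.05, 6.98 and 7.03 (-0.05, interval -0.16 to 0.06). MCM4 was the most even, with 6.53, 6.54 and 6.51, then 6.54, 6.51 and 6.54 (0.01, interval -0.11 to 0.12). In all 6 ring genes the groups overlapped and the fold change was under 0.1 in size.

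The other ring subunits showed the same, with MCM5 the most variable. MCM5 had values of 5.85, 6.08 and 6.09 in vehicle and 5.99, 6.14 and 5.86 with VS-4718 (-0.01, interval -0.25 to 0.23). MCM6 had 6.40, 6.35 and 6.30, then 6.37, 6.30 and 6.31 (-0.02, interval -0.16 to 0.11). MCM7 had 7.77, 7.63 and 7.63, then 7.73, 7.66 and 7.68 (0.01, interval -0.12 to 0.14). The signs of these differences changed in some settings for MCM4, MCM5, MCM6 and MCM7. Of the origin subunits tested, ORC2 differed by -0.09 (interval -0.44 to 0.26) and ORC6 by less than 0.01 in size (interval -0.30 to 0.29).

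Among polymerase and fork genes, 11 of 16 tested members were lower and 5 higher. RFC3, a subunit of the loader that places PCNA on DNA, had values of 7.24, 7.19 and 7.29 in vehicle and 7.14, 7.05 and 7.10 with VS-4718. The groups did not overlap, with a fold change of -0.14 (SE 0.05) and an adjusted limma p of 0.45. Its unadjusted p was no longer under 0.05 with median scaling, in limma without trend, and with any of 4 libraries left out (vehicle 1, vehicle 3, VS-4718 2, VS-4718 3). The other loader subunits RFC1, RFC2, RFC4 and RFC5 differed by -0.08, -0.20, -0.09 and 0.03, and their groups overlapped.

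The catalytic subunits of the leading-strand polymerase epsilon and the lagging-strand polymerase delta had fold changes of opposite sign, and neither passed. POLE, the catalytic subunit of epsilon, had values of 3.04, 2.79 and 2.88 in vehicle and 2.78, 2.63 and 2.73 with VS-4718, without overlap but with a gap of under 0.01 between the groups (-0.19, SE 0.11, limma, adjusted p = 0.64). POLE2, its second subunit, had 2.21, 2.48 and 2.35, then 1.94, 1.81 and 2.31, and the groups overlapped through VS-4718 replicate 3 (-0.33, interval -0.73 to 0.08). POLD1, the catalytic subunit of delta, had 4.22, 4.39 and 4.25, then 4.46, 4.48 and 4.40. It was the 1 member whose treated values were all above vehicle (0.16, SE 0.08, limma, adjusted p = 0.58). POLD3, another delta subunit, went the other way (-0.15, interval -0.44 to 0.14), with vehicle 1 at 5.54 above the other 5 libraries at 5.09 to 5.17. Whether epsilon and delta genes differed from each other was not tested.

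Primase and polymerase alpha, which start each new strand, went both ways. PRIM2, the large primase subunit, had values of 2.05, 1.85 and 2.17 in vehicle and 2.06, 2.38 and 2.42 with VS-4718 (0.26, SE 0.16), the highest fold change of the tested members, with overlapping groups. PRIM1 differed by -0.04, POLA1 by -0.01 and POLA2 by -0.09. RPA1, which coats single-stranded DNA, differed by 0.03 (interval -0.10 to 0.15). FEN1, which trims Okazaki fragments, differed by -0.04 (interval -0.17 to 0.09), and LIG1, which joins them, by 0.07 (interval -0.15 to 0.29).

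**Figure D4:**
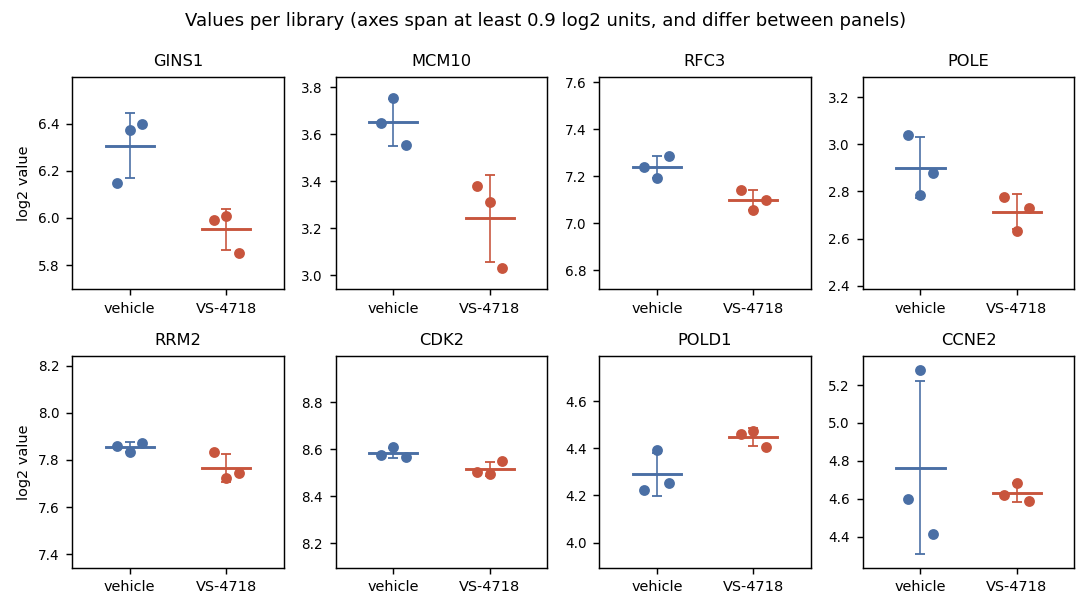
Log2 value (vertical axis, scaled per panel) of 8 members in each of 3 vehicle and 3 VS-4718 libraries; points are libraries, horizontal lines group means and bars 1 SD. The first 7 panels show the members whose groups did not overlap, 6 lower and POLD1 higher, and CCNE2 shows a single high vehicle library at 5.28.

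The 3 nucleotide supply genes with a row were high and nearly level. RRM2 had values of 7.86, 7.83 and 7.87 in vehicle and 7.83, 7.72 and 7.74 with VS-4718. The groups did not overlap, but the lowest vehicle value, 7.834, and the highest treated one, 7.832, nearly met (-0.09, interval -0.20 to 0.02). RRM1, the large subunit of the same enzyme, differed by less than 0.01 in size (interval -0.15 to 0.14). TYMS had 8.65, 8.62 and 8.60, then 8.64, 8.58 and 8.61, with overlapping groups (-0.02, interval -0.11 to 0.07).

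Of the G1/S drivers, CDK2 was the most even between libraries and the cyclin E genes the least. CDK2 had values of 8.57, 8.61 and 8.57 in vehicle and 8.50, 8.49 and 8.55 with VS-4718, without overlap (-0.07, SE 0.04, limma, adjusted p = 0.61). CCNE2, a cyclin E, had 4.60, 5.28 and 4.41, then 4.62, 4.69 and 4.59. Vehicle 2 was the highest by far, and without it the fold change was 0.13 in place of -0.13. CCNE1, the other cyclin E, was low and ranged from 0.33 to 1.35 in vehicle and from 0.56 to 1.03 with VS-4718 (0.02, interval -0.72 to 0.77). CDC25A, the phosphatase that activates CDK2, differed by -0.04 (interval -0.25 to 0.16).

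In the chromatin assembly role, where CHAF1A and CHAF1B serve to rebuild nucleosomes behind the fork, the groups overlapped for every gene. CHAF1A, the large subunit of the histone chaperone CAF-1, had values of 5.40, 5.19 and 5.14 in vehicle and 5.16, 4.86 and 5.18 with VS-4718 (-0.17, SE 0.12). CHAF1B, its partner, had 2.22, 2.24 and 1.62, then 2.18, 2.20 and 2.02 (0.10, SE 0.20). Vehicle 3 was the lowest for CHAF1B, and without it the sign turned to -0.10. SLBP, which binds histone mRNA, differed by -0.05 (interval -0.21 to 0.11).

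The fold changes were then set beside the promoter words. The median was -0.05 in the 14 tested members with an E2F word, of which 11 were lower (78.6%). It was -0.04 in the 19 without one, of which 13 were lower (68.4%). Over the tested rows that matched a window, the median was -0.03 both with a word (370 rows, 59.2% lower) and without (5707 rows, 59.1% lower). GINS1 and RFC3 had a listed word and MCM10 had none, so the 3 members with the smallest p-values did not share this feature. The MCM10 window does hold TTTGGCGG, which differs from the listed TTTGGCGC only in its last base. The split follows the exact listed words and need not separate genes with an E2F site from genes without.

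Of the E2F genes themselves, 1 rose and none fell by the test. In the E2F and RB list 4 of 11 tested genes were lower (36.4%, against 58.2% of all tested rows). The median was 0.08, against -0.03. The groups did not overlap in 4 of the 11, 3 lower and 1 higher (36.4%, against 16.4% of all tested rows). E2F3, an activating E2F, had values of 3.28, 3.40 and 3.23 in vehicle and 4.59, 4.78 and 4.28 with VS-4718, and it was the 1 gene of the 11 tested in the E2F and RB list that passed (1.25, SE 0.14, limma, adjusted p = 0.045). Its fold change stayed between 1.13 and 1.38 over 15 other settings, but the call was lost in 9 of them, with adjusted p from 0.026 to 0.23. E2F5, a repressing E2F, had 3.37, 3.49 and 3.54, then 3.09, 3.09 and 3.01. All treated values were below vehicle (-0.40, SE 0.10), but the adjusted limma p was 0.29. E2F4, also repressing, differed by -0.14 and did not pass (adjusted p = 0.58). E2F1, the best known activator of the replication genes, differed by 0.02 (interval -0.17 to 0.21), with overlapping groups. The pocket protein genes RB1, RBL1 and RBL2 differed by -0.04, -0.22 and 0.16, and none of the 3 passed in limma. Every treated value of RBL1 was below vehicle, while RB1 and RBL2 overlapped between groups.

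**Figure D5:**
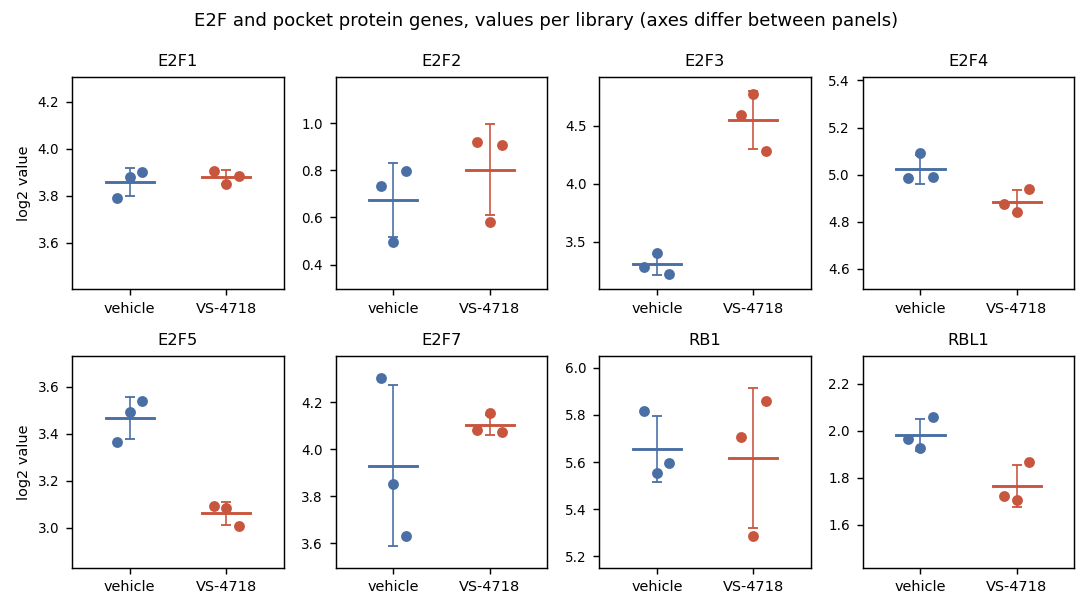
Log2 value (vertical axis, scaled per panel) of E2F and pocket protein genes in each library; points are libraries, horizontal lines group means and bars 1 SD. E2F3 lies at 3.23 to 3.40 in vehicle and 4.28 to 4.78 with VS-4718, while E2F1 overlaps between groups.

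Upstream of E2F, CCND1, the cyclin D1 gene, had values of 6.14, 6.27 and 6.27 in vehicle and 5.98, 5.96 and 5.88 with VS-4718, without overlap (-0.29, SE 0.06), but it did not pass (limma, adjusted p = 0.26). CDKN1B, the inhibitor p27 of cyclin E and CDK2, had a fold change of 0.39 (SE 0.17) with overlapping groups. In the list of D cyclins and CDK inhibitors, none of 8 tested genes passed in limma and 1 had an unadjusted p under 0.05 (12.5%, against 9.76% of all tested rows). FBXW7, which marks cyclin E for breakdown, differed by -0.27 (SE 0.14).

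None of 21 other replication genes passed in limma, and 2 had an unadjusted p under 0.05 (9.52%, against 9.76% of all tested rows). Of the 21, 14 were lower (66.7%, against 58.2% of all tested rows), or 11 with median scaling, and the median was -0.05, against -0.03. CLSPN, the checkpoint adaptor at the fork, had values of 4.13, 4.26 and 4.28 in vehicle and 3.96, 3.99 and 3.97 with VS-4718, without overlap (-0.25, SE 0.08, limma, adjusted p = 0.40). ORC5, an origin subunit, differed by -0.22 (SE 0.08) and MCM8, a helicase of repair, by -0.23 (SE 0.11). None of 25 other nucleotide synthesis genes passed either, with 3 at an unadjusted p under 0.05 (12%, against 9.76% of all tested rows) and 14 lower (56%, against 58.2%); MTHFD2 and ATIC, of folate and purine synthesis, differed by -0.17 and -0.16, and DCK, a salvage kinase, by -0.41 (SE 0.16).

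The checkpoint and histone chaperone lists had no gene past the limma threshold, and 0 of 8 and 2 of 9 tested genes at an unadjusted p under 0.05 (22.2% of the 9, against 9.76% of all tested rows). Of the checkpoint genes 5 were lower (62.5%, against 58.2% of all tested rows). RAD1, of the checkpoint clamp, differed by -0.16 (SE 0.07), CHEK2 by 0.31 (SE 0.17) and HUS1 by -0.17 (SE 0.10). Of 9 histone chaperone and chromatin genes 6 were lower (66.7%), or 4 with median scaling. ASF1B, which hands histones to CAF-1, had values of 6.45, 6.51 and 6.25 in vehicle and 6.61, 6.76 and 6.68 with VS-4718, all above vehicle (0.28, SE 0.08, limma, adjusted p = 0.37). NASP, another histone chaperone, went the other way (-0.18, SE 0.07), as did HELLS, a chromatin remodeller (-0.27, SE 0.15).

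The G2/M list, next in the cycle, had 11 of 13 tested genes lower (84.6%, against 58.2% of all tested rows), with a median of -0.07, against -0.03. With median scaling 8 of 13 were lower (61.5%, against 49.3% of all rows) and the median was -0.03. None passed in limma, and 2 had an unadjusted p under 0.05 (15.4%, against 9.76% of all tested rows). CENPF, a kinetochore protein, had values of 7.66, 7.65 and 7.72 in vehicle and 7.43, 7.52 and 7.51 with VS-4718 (-0.19, SE 0.05, limma, adjusted p = 0.34). PLK1, a mitotic kinase, differed by -0.19 (SE 0.06) and BUB1B, of the spindle checkpoint, by -0.17 (SE 0.11). Whether this list differed from the replication genes was not tested. PTK2, which encodes the drug's target, differed by -0.15 (SE 0.20, limma, adjusted p = 0.84).

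In GENCODE 29 on GRCh38 all 49 members are protein coding, and they lie on 21 chromosomes. Each value above is that of a row named by gene, and the annotation behind the rows is not given. GINS1 lies on chromosome 20 from 25407727 to 25452628, MCM10 on chromosome 10 from 13161554 to 13211104 and RFC3 on chromosome 13 from 33818049 to 33966558, all on the plus strand. These starts are not the RefSeq start sites used for the promoter windows. The GINS1 window ends at 25407722, before the GENCODE start, so the place of its word relative to the gene depends on the annotation. MCM2 lies on chromosome 3 from 127598223 to 127622436, E2F3 on chromosome 6 from 20401906 to 20493715 and POLD1 on chromosome 19 from 50384204 to 50418016, also on the plus strand.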

How the data were processed

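Total RNA of 92.1 cells, 3 libraries per group, went through Illumina library preparation and sequencing, per the labels' protocols. The submitters' processing notes name kallisto and GRCh38; its index, annotation, strand setting and any filter are not given in these sources. The table gives, for each gene name, a log2 value per library as deposited by the authors. That the log2 scale is of a TPM-like measure follows from the values: back on the linear scale, columns summed to between 836527 and 840714.

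After dropping the 25% of rows with the lowest means (up to 0.70), the rest were tested with limma 3.58.1 in R 4.3.3 (limma-trend, group as the only term, two-sided, Benjamini-Hochberg at 0.05 over 9229 rows). A fold change is the difference of the group means on the log2 scale, with limma's moderated SE. With 3 against 3, an exact permutation test of 1 gene cannot go below p = 0.1, so none was used.

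Named were members with an unadjusted p under 0.05, those whose groups did not overlap, the 2 largest fold changes of each role and MCM2 to MCM7, and up to 3 genes of smallest p in each other list; further members, RB1, RBL1, RBL2 and E2F1 were named outside this rule after their values were seen. The members and lists were chosen with earlier results of these data known. Other settings tried were leaving out each library, a replicate block, median scaling, 2 other filters, a pseudocount of 1, limma without trend, robust variances and quality weights; rows with human names only were added after seeing the data. Promoter windows come from RefSeq tables; the first of 7811 repeated entries per symbol was kept. Figures were drawn with matplotlib 3.10.9.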

Additional observations from a re-analysis of the deposited data

How the results depend on the processing

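No member passed limma under any of the 15 other settings. With a library left out, 2 to 5 of 38 tested members had an unadjusted limma p under 0.05. So did 706 to 990 of all 9229 tested rows. The count of 5 members came without VS-4718 replicate 1, where 758 of all rows did so. GINS1 and MCM10 were among the members in every setting, but the settings reuse the same libraries and are not independent of each other. The count of rows called over all genes, 12, fell to 0 under the replicate block (where 793 had an unadjusted p below 0.05), to 0 in limma without trend (910) and to 0 to 7 with a library left out (706 below 0.05 without VS-4718 replicate 2, where 0 passed); the cause was not tested. Residuals of same-numbered libraries correlated at 0.135, 0.055 and 0.032 across genes. VS-4718 replicates 1 and 2 matched best with the vehicle library of their own number, and VS-4718 replicate 3 with vehicle 2 (0.049). These correlations are weak and do not settle whether the libraries are paired. The main fit did not take the numbers as pairs, and the block called no member either. With median scaling, which raised the median of all rows by 0.034, the members' median was -0.010 and those of licensing, polymerase and nucleotide genes 0.008, -0.028 and 0.016. With a library left out, polymerase genes ran from -0.083 to -0.019, nucleotide genes from -0.047 to -0.002, G1/S drivers from -0.122 to 0.035 and chromatin assembly genes from -0.097 to 0.004. Signs near 0 reversed with median scaling for MCM5 (0.024), MCM6 (0.009) and TYMS (0.016), and with a library left out for MCM4 (-0.001 to 0.018), MCM5 (-0.087 to 0.060), MCM7 (-0.010 to 0.059), CCNE2 (-0.308 to 0.125), CHAF1B (-0.097 to 0.211) and PTK2 (-0.338 to 0.067). The cause of these shifts was not tested. Read depth is unknown, so no counting limit can be given.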

Other observations

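PCNA had no row among those used here, but a row with the mouse-style name of a pseudogene, PCNA-PS2, was high: 8.27, 8.30 and 8.28 in vehicle and 8.18, 8.22 and 8.28 with VS-4718 (fold change -0.06, 95% interval -0.16 to 0.04). Which transcripts fed this row was not tested, and it was not counted among the members. CCND2, the cyclin D2 gene, lay under the filter and was not tested: -3.85, -3.42 and -3.76 in vehicle and -3.25, -2.44 and -2.22 with VS-4718, all above vehicle at levels next to nothing.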
